A study of Mus musculus with 6 samples.

Results

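The genes described here are 50 genes of matrix glycoproteins, proteoglycans and elastic fibres, with the enzymes that cross-link or process the matrix, taken by gene name from 34745 genes measured in cultured lung mesenchymal stromal cells (LMSCs). All 50 names were found. LMSCs were grown from the lungs of MMTV-PyMT mice, in which a mouse mammary tumor virus promoter drives the polyoma middle T antigen in the mammary gland and the mammary tumors spread to the lung. The RNA-seq libraries were 2 of A-LMSCs (adenoma stage, mice of 6 to 7 weeks by the labels), 2 of PM-LMSCs (pre-metastatic stage, 9 to 10 weeks) and 2 of M-LMSCs (metastatic stage, 13 to 14 weeks), and the study's methods place the first and second of these stages somewhat later in age. Every group carried the transgene, so no library of transgene-free mice stands beside them, and age and tumor stage cannot be told apart. By the study's methods the cells were digested out of the lung, kept as adherent cells, depleted of CD45+ cells with magnetic beads and expanded, and all libraries came from passage 3. A further library per stage was not analysed here. The study counts its replicates as mice, while the labels do not say which mouse a library came from, so the p-values measure the spread between these libraries.

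The extracellular matrix of the lung is laid down largely by its mesenchymal cells. Fibronectin and the matricellular glycoproteins link cells to the matrix, fibrillins form microfibrils on which elastin is deposited and then joined by lysyl oxidases, and the small leucine-rich proteoglycans bind collagen fibrils and limit their width. Nidogens, perlecan and agrin belong to basement membranes, and syndecans and glypicans carry heparan sulfate at the cell surface. In tumor-bearing lungs, fibronectin, periostin, tenascin C and lysyl oxidase are known from studies of the pre-metastatic niche.

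The files give 1 value per gene and library in FPKM, fragment numbers divided by exon length and by library size, so that levels can be set side by side between genes as well as between libraries. The value that 1 fragment added in genes with low FPKM put the depth at an estimated 15490000 to 21380000 fragments a library. The libraries of 1 stage correlated at 0.977 to 0.992 across the 10279 genes whose mean reached 1 FPKM, and libraries of different stages at 0.966 to 0.987. These genes are not independent replicates. The 12 listed markers of cultured mesenchymal stromal cells were all found and all passed the level needed for testing. Itgam, Pecam1, Cd34 and Ptprc, which the surface panel of the study scores as negative, had low sums that were highest in M-LMSCs. They were 0.422 and 0.977 FPKM (A-LMSCs), 1.33 and 1.06 FPKM (PM-LMSCs) and 3.30 and 3.97 FPKM (M-LMSCs). In bulk RNA, fewer cells of a type and less RNA per cell cannot be told apart.

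Matrix genes were among the most abundant transcripts of LMSCs. Of the 50 genes, 13 had a mean above 100 FPKM, 17 lay between 10 and 100 FPKM, 14 between 1 and 10 FPKM, and 6 below 1 FPKM (Vtn, Fbn2, Mfap2, Aspn, Acan and Hapln1). The 44 at a mean of 1 FPKM or more had a median of 35.9 FPKM, against 6.45 FPKM for all tested genes, and 20 of them were among the 1000 most abundant, which are 9.73% of the tested genes. Together the 50 genes made up 2.24% and 2.21% of the summed FPKM in the A-LMSC libraries, 2.12% and 2.15% in PM-LMSCs, and 2.65% and 2.47% in M-LMSCs. The share was thus highest in both M-LMSC libraries. The highest level belonged to Sparc, which encodes a collagen-binding counter-adhesive glycoprotein, with a mean of 1229 FPKM and rank 14 among the tested genes. Thbs1 (thrombospondin 1, an adhesive glycoprotein that activates latent TGF-beta) followed at 1139 FPKM and rank 16. Fbln2, a fibulin of microfibrils and basement membranes, came next at 679.7 FPKM. Lox, Fn1 and Bgn stood at 475, 409 and 365 FPKM.

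**Figure D1:**
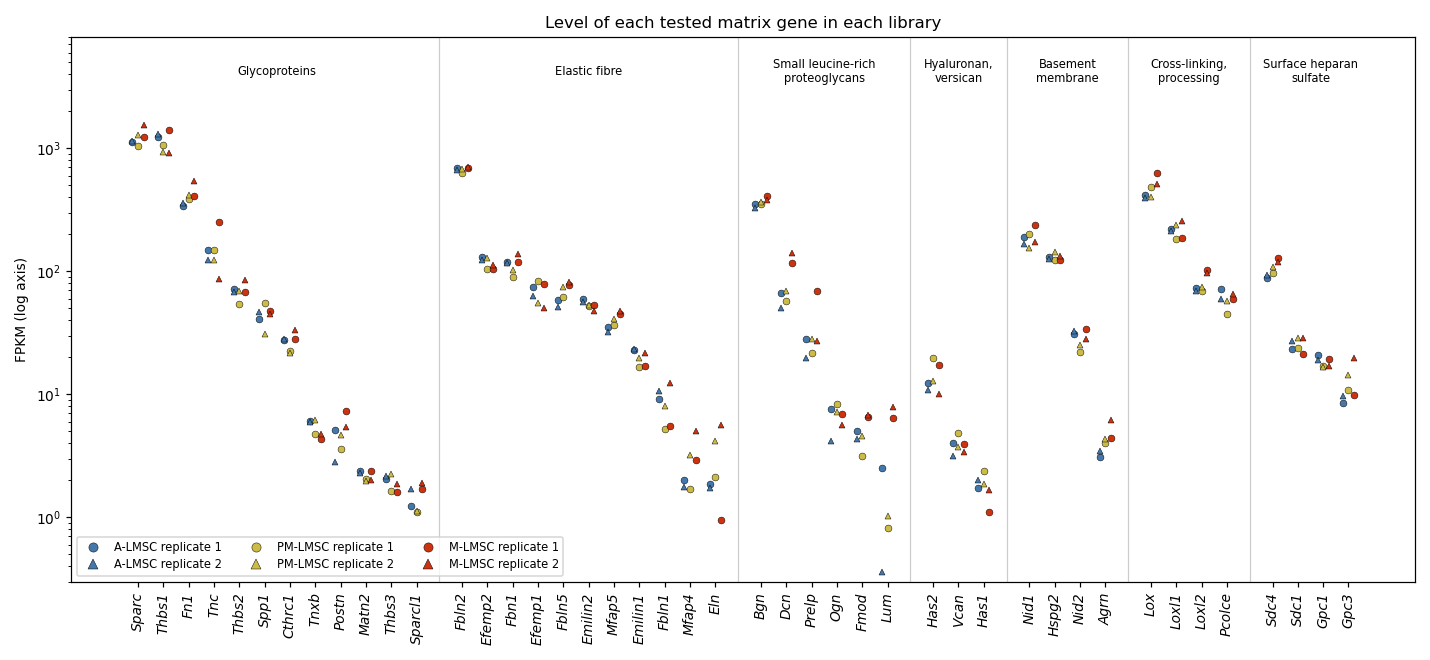
FPKM (log axis) of the 44 tested matrix genes in each of the 6 libraries, grouped by role and ordered by mean level within each role. Circles are replicate 1, triangles replicate 2, and colors mark the stages. Levels run from Sparc, with a mean of 1229 FPKM, to Sparcl1 at 1.46 FPKM, and the libraries of a gene mostly lie close together beside this range, with Lum and Eln as the widest spreads.

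Stage differences were tested with limma on log2(FPKM + 1), fitted over all 10279 genes, with 1 spread estimated over all 3 stages and Benjamini-Hochberg adjustment over every tested gene. Because 1 is added before the logarithm, the fold change of a low gene is understated. At an adjusted p under 0.05, 0 of the 44 tested matrix genes were called in any contrast. Between PM-LMSCs and A-LMSCs, limma called 0.0292% of all tested genes higher and 0.00973% lower. For M-LMSCs against A-LMSCs the shares were 0.0389% and 0.0292%, between M-LMSCs and PM-LMSCs 0.0195% and 0.00973%, and for the mean of both later stages against A-LMSCs 0.0876% and 0.0389%. Libraries with the same replicate number deviated together from their stage means, and with the replicate number as a block limma called 2 matrix genes, Dcn and Lum, both higher in M-LMSCs, against A-LMSCs. They are 4.55% of the 44, against 2.28% of all tested genes called higher in that fit and 1.64% called lower. With the block, 0 matrix genes were called in PM-LMSCs against A-LMSCs (all genes 0.263% higher, 0.0292% lower), in M-LMSCs against PM-LMSCs (0.272% and 0.146%) or in both later stages against A-LMSCs (1.33% and 0.72%).

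At an unadjusted p under 0.05, limma set 12 matrix genes higher in M-LMSCs relative to A-LMSCs (27.3% of the 44, against 7.68% of all tested genes) and 1, Tnxb, lower (2.27%, against 6.96%). The 12 were Fn1, Postn, Fbln5, Mfap4, Mfap5, Dcn, Lum, Fmod, Agrn, Lox, Loxl2 and Sdc4. Over the 44 genes, the median log2 fold change in M-LMSCs was 0.12 (29 above 0 and 15 below), against 0.03 over all tested genes, and it was 0.07 (26 above 0 and 18 below) with each library centred on its median. In PM-LMSCs against A-LMSCs, 0 were higher (3.92% of all genes) and 2, Cthrc1 and Nid2, were lower (4.55%, against 2.61%), and the median was -0.02, against 0.01 over all genes. Between M-LMSCs and PM-LMSCs, 9 were higher (20.5%, against 4.48%), namely Sparcl1, Cthrc1, Fbn1, Dcn, Lum, Fmod, Nid2, Loxl2 and Sdc4, and 1, Has1, was lower (2.27%, against 4.46%). In both later stages against A-LMSCs, 8 were higher (18.2%, against 6.43%) and 0 lower (4.79% of all genes). The contrasts share libraries, so these counts do not stand independently of each other, and none of the genes in them passed after adjustment.

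Read library by library, both M-LMSC values lay above all 4 values of the other stages in 13 of the 44 genes (29.5%, against 11.8% of all tested genes). These were Postn, Fbn1, Fbln2, Fbln5, Mfap5, Dcn, Lum, Bgn, Fmod, Agrn, Lox, Loxl2 and Sdc4. The margin to the highest A-LMSC library was small in Fbln2 (692.4 against 692.1 FPKM) and in Fbn1 (119.2 against 118.8 FPKM). Both M-LMSC values lay below all others in Tnxb and Has1 (4.55%, against 11.6%). The M-LMSC libraries lay wholly above the A-LMSC libraries in 17 genes (38.6%, against 27.1%) and wholly below in 6 (13.6%, against 24.4%). The PM-LMSC libraries lay above the A-LMSC libraries in 8 genes (18.2%, against 19.6%) and below in 11 (25.0%, against 19.7%). All 4 later libraries exceeded both A-LMSC libraries in 6 genes, Fn1, Fbln5, Mfap5, Agrn, Gpc3 and Sdc4 (13.6%, against 10.7%), and fell short of both in Emilin1 and Emilin2 (4.55%, against 10.7%). With 4 libraries against 2, an exact permutation test of a single gene cannot give a p below 0.0667, and with 2 against 2 not below 0.333.

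Promoter sequence is shown for those of the 12 genes higher in M-LMSCs at an unadjusted p under 0.05 for which RefSeq gave a start site with 250 bases before it that hold no base of the annotated gene. Such entries came from the GRCm38.p6 table, in which 33 of the 50 matrix genes were matched and 17 were not, Dcn, Lum, Lox, Loxl2 and Fn1 among the latter. Each line gives the 250 bases upstream of the start, 5' to 3' on the gene's strand. Capitals mark TATAAA (the TATA box) and GGGCGG (the GC box), read on both strands, so that a GC box on the other strand appears as CCGCCC. The windows are Postn, chr3:54360857-54361106 (plus strand), Fbln5, chr12:101819120-101819369 (minus strand), Fmod, chr1:134037004-134037253 (plus strand), and Agrn, chr4:156197489-156197738 (minus strand).
Postn: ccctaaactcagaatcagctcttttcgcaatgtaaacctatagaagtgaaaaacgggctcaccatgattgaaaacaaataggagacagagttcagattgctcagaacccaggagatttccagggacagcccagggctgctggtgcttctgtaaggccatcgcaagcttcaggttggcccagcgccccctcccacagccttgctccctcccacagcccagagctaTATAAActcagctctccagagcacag
Fbln5: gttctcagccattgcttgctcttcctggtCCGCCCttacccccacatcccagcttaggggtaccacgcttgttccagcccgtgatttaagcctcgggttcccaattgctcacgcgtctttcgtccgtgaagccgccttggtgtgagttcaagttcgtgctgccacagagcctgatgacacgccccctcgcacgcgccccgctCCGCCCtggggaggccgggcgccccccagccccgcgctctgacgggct
Fmod: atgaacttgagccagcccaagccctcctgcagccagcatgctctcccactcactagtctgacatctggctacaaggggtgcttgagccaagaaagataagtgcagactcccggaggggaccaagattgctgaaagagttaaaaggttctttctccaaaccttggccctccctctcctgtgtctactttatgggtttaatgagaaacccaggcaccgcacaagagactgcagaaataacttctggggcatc
Agrn: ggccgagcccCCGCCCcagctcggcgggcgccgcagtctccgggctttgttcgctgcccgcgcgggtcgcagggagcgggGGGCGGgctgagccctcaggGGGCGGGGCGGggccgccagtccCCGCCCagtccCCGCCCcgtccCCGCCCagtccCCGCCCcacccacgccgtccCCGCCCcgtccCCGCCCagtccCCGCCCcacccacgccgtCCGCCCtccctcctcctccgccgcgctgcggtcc

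The Postn window held TATAAA with its first base 26 bases before the start. The Fbln5 window held GGGCGG at -221 and -48, both on the other strand, the Agrn window held it 12 times, with an overlapping pair at -150 and -145, and in the Fmod window none of the capitalised letters occurred. Of the 33 matrix genes with an entry, 7 held TATAAA (21.2%, against 12.4% of all 32851 windows of the same length) and 17 held GGGCGG (51.5%, against 32.7%). The median GC content of the windows was 58.0% in the matrix genes and 52.4% over all. The shares were closer for TGANTCA, the AP-1 motif (6.06%, against 6.75%), CAGAC, a SMAD-binding motif left in lower case (45.5%, against 42.2%), GGAATG, the TEAD motif (15.2%, against 12.6%) and the STAT6 motif, searched by its consensus (6.06%, against 5.85%). TTCNNNGAA, the motif of other STAT factors, was in 0 of the 33 and in 7.02% of all. Every motif was searched on both strands, and a match is a description of letters only. Each matrix gene entered with only the window nearest its annotated 5' end, but the 32851 hold every RefSeq entry, so the units differ. In 9 of the 33 the start lay over 100 bases from that end, and some of the 33 windows overlap the annotated gene.

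The small leucine-rich proteoglycans (SLRPs) held the largest stage differences of the set. Dcn encodes decorin, which coats collagen fibrils and binds TGF-beta. It was at 66.4 and 50.7 FPKM (A-LMSCs), at 57.6 and 68.6 FPKM (PM-LMSCs) and at 117 and 141.2 FPKM (M-LMSCs). Both M-LMSC libraries lay far above the other 4, whose values overlapped between the stages. The means were 58.5 ± 11.1, 63.1 ± 7.79 and 129 ± 17.1 FPKM (SD, n = 2 each), a 2.21-fold difference between M-LMSCs and A-LMSCs. The log2 fold change of 1.13 (SE 0.175) had an adjusted p of 0.0875 from limma, which did not pass, and of 0.0239 with the replicate block, which did. Correcting also for the GC content and length of each gene gave 0.98 with an adjusted p of 0.0883. With 1 library left out, the value passed only without M-LMSC replicate 1 (1.27, adjusted p = 0.0487), and it was 1.33 (adjusted p = 0.213) and 0.94 (adjusted p = 0.507) without A-LMSC replicates 1 and 2. Against PM-LMSCs, Dcn differed by 1.02 (SE 0.175, adjusted p = 0.192, and 0.0663 with the block).

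Lum encodes lumican, a keratan sulfate SLRP of collagen fibrils. It was at 2.52 and 0.358 FPKM (A-LMSCs), at 0.815 and 1.03 FPKM (PM-LMSCs) and at 6.44 and 7.90 FPKM (M-LMSCs). The M-LMSC libraries again stood apart from the other 4, while the A-LMSC libraries differed 7.04-fold from each other, the widest gap between replicates in the set. The estimated fragments behind these values ran from 16.3 to 328 a library, against 5210 to 14000 for Dcn. Mean Lum in M-LMSCs, 7.17 ± 1.03 FPKM (SD, n = 2), was 4.98 times that of A-LMSCs and 7.76 times that of PM-LMSCs. Against A-LMSCs the log2 fold change was 1.90 (SE 0.402), with an adjusted p of 0.118 from limma, 0.0419 with the replicate block and 0.0999 with the block and the GC and length correction. Without A-LMSC replicate 1, the higher of the A-LMSC values, it was 2.58 and passed (adjusted p = 0.0297), whereas without A-LMSC replicate 2 it was 1.21 and did not (adjusted p = 0.395). Against PM-LMSCs it was 2.08 (SE 0.402, adjusted p = 0.217). That difference passed when the fit held PM-LMSCs and M-LMSCs alone (adjusted p = 0.0265) and without either A-LMSC library (0.0241 without replicate 1 and 0.0265 without replicate 2), which are not in the contrast but enter the estimated spread. It did not pass with the block (adjusted p = 0.0706), with the block and the correction (0.148), or without PM-LMSC replicate 1 (0.498) or 2 (0.581).

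Dcn and Lum are neighbors on the plus strand of mouse chromosome 10 in GRCm38, Dcn from 97479609 to 97518143 and Lum from 97565128 to 97572703, together within 93.1 kb. The SLRP genes that follow them there were close to absent, with Kera listed at 0 in all 6 libraries and Epyc at 0.192 FPKM or less. On chromosome 1, Fmod (plus strand, 134037254 to 134048277) and Prelp (minus strand, 133910304 to 133921414) lie within 138.0 kb. Fmod encodes fibromodulin, which binds collagen beside lumican. It was at 4.99 and 4.37 FPKM (A-LMSCs), at 3.17 and 4.60 FPKM (PM-LMSCs) and at 6.55 and 6.80 FPKM (M-LMSCs), so that M-LMSCs did not overlap the rest. The log2 fold change was 0.44 (SE 0.166, adjusted p = 0.299 from limma) against A-LMSCs and 0.67 (SE 0.166, adjusted p = 0.334) against PM-LMSCs. Prelp, which encodes a heparin-binding SLRP of basement membrane zones, was at 28.0 and 19.6, 21.6 and 28.2, and 68.7 and 27.3 FPKM in the same order of stages. Its 2.01-fold higher mean in M-LMSCs came from replicate 1 alone, since replicate 2 lay within the range of the other stages, and the log2 fold change of 0.86 had an SE of 0.408 (adjusted p = 0.387).

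Bgn (biglycan) was the most abundant SLRP, at 351 and 326 FPKM (A-LMSCs), at 351 and 366 FPKM (PM-LMSCs) and at 412 and 381 FPKM (M-LMSCs). The M-LMSC libraries were highest, but the difference from A-LMSCs was 0.23 on the log2 scale (SE 0.114, adjusted p = 0.410 from limma). Ogn (osteoglycin) was at 7.59 and 4.16, 8.39 and 7.16, and 6.95 and 5.60 FPKM, and its stages overlapped except that M-LMSCs lay below PM-LMSCs. Its log2 fold change was 0.40 (SE 0.247, adjusted p = 0.859) in PM-LMSCs and 0.12 in M-LMSCs. Aspn, which lies near Ogn on chromosome 13 with Omd between them, was listed at 0 in A-LMSCs and reached 0.162 FPKM. Of the 6 tested SLRPs, all 6 had a log2 fold change above 0 in M-LMSCs, with a median of 0.65, against 0.03 over all tested genes. The value of Ogn was below 0, leaving 5 of 6 above, with the block and the GC and length correction, without A-LMSC replicate 2 and without M-LMSC replicate 1. The summed level of the SLRPs was 460.9 and 405 FPKM (A-LMSCs), 443 and 476 FPKM (PM-LMSCs) and 618 and 569 FPKM (M-LMSCs).

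**Figure D2:**
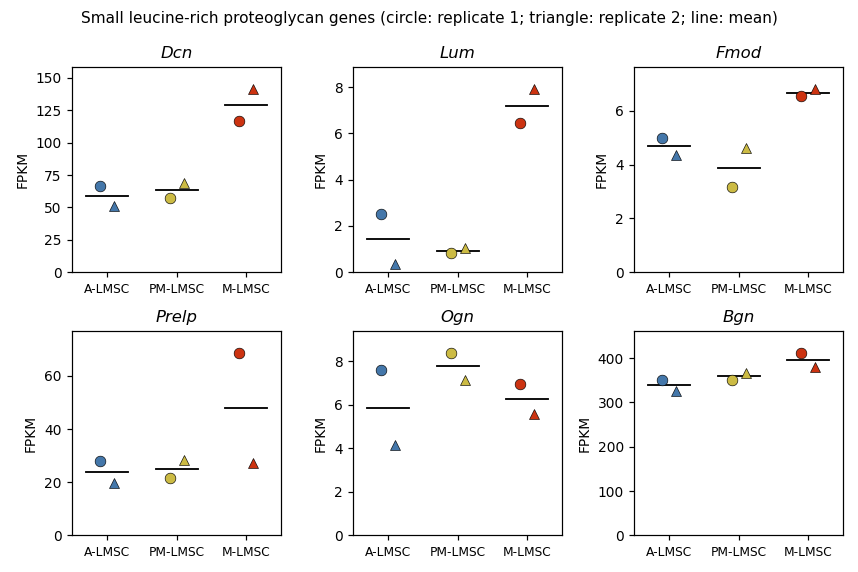
FPKM (axes start at 0, a scale for each gene) of the 6 tested small leucine-rich proteoglycan genes in each library. Circles are replicate 1, triangles replicate 2, and bars the stage means. Both M-LMSC points lie above all others in Dcn, Lum, Fmod and Bgn, whereas in Prelp only replicate 1 does, and in Ogn both lie below the PM-LMSC points and overlap the A-LMSC points.

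Among the adhesive and matricellular glycoproteins, Fn1 and Postn had the largest log2 fold changes in M-LMSCs against A-LMSCs. Fn1 encodes fibronectin, which assembles into fibrils through integrins. It was at 340.2 and 357 FPKM (A-LMSCs), at 388 and 419 FPKM (PM-LMSCs) and at 412 and 539.6 FPKM (M-LMSCs). All 4 later libraries exceeded both A-LMSC values, and the later stages overlapped each other. The log2 fold change was 0.21 (SE 0.155, adjusted p = 0.859 from limma) in PM-LMSCs and 0.43 (SE 0.155, adjusted p = 0.280) in M-LMSCs, and the latter had an adjusted p of 0.0940 with the block and was 0.24 without M-LMSC replicate 2. Postn encodes periostin, a matricellular protein that binds tenascin C and collagen. It was at 5.09 and 2.84, 3.63 and 4.63, and 7.34 and 5.43 FPKM. The M-LMSC mean was 1.61 times that of A-LMSCs, but A-LMSC replicate 1 came close to the lower M-LMSC value, and the log2 fold change of 0.60 (SE 0.249) had an adjusted p of 0.340. It was 0.93 without A-LMSC replicate 1 and 0.27 without A-LMSC replicate 2.

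The 2 most abundant matrix genes differed little beside the spread. Sparc was at 1130 and 1148 FPKM (A-LMSCs), at 1041 and 1282 FPKM (PM-LMSCs) and at 1228 and 1543 FPKM (M-LMSCs) (M-LMSC against A-LMSC 0.27 on the log2 scale, SE 0.170, adjusted p = 0.478 from limma). Thbs1 was at 1232 and 1300, 1063 and 928, and 1399 and 914 FPKM. In Thbs1 the PM-LMSC libraries lay below both A-LMSC libraries (-0.35, SE 0.213, adjusted p = 0.858), and the M-LMSC libraries lay on either side of them. Tnc, which encodes the anti-adhesive hexamer tenascin C, was at 149.9 and 125, 148 and 123, and 254 and 87.0 FPKM. The M-LMSC libraries held both the highest and the lowest Tnc value, a 2.92-fold gap, so the log2 fold change of 0.12 had an SE of 0.446. Tnxb, tenascin X, was lower in both M-LMSC libraries, at 4.32 and 4.71 FPKM, than in the others, at 4.72 to 6.17 FPKM (-0.34, SE 0.143, adjusted p = 0.341). The margin to the nearest PM-LMSC library was 4.72 against 4.71 FPKM. Exons of Tnxb share 1090 bases at 97.6% identity with Tnxa, which was at 0.0192 FPKM or less. In Cthrc1, which encodes a collagen triple helix repeat protein, PM-LMSCs at 22.3 and 21.9 FPKM lay below A-LMSCs at 27.4 and 28.2 FPKM (-0.32, SE 0.119, adjusted p = 0.679) and M-LMSCs at 28.1 and 33.4 FPKM. The remaining Sparcl1, Spp1, Thbs2, Thbs3 and Matn2 had log2 fold changes between -0.19 and 0.19 in M-LMSCs against A-LMSCs. Vtn, vitronectin, a protein made mainly by the liver, was listed at 0 in all 6 libraries.

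Values of the elastic-fibre genes differed in direction. Fbn1 encodes fibrillin 1, the main component of microfibrils. It was at 119 and 118 FPKM (A-LMSCs), at 90.1 and 103 FPKM (PM-LMSCs) and at 119 and 139 FPKM (M-LMSCs), so that PM-LMSCs were lowest and M-LMSCs just above A-LMSCs (0.42 for M-LMSCs against PM-LMSCs, SE 0.126, adjusted p = 0.415 from limma). Exons of Fbn1 overlap Gm9913 on the opposite strand over 2442 bases, and whether strand was used in counting is not given in the sources used here. Fbn2, the fibrillin of developing tissue, was at 0.993 and 0.796, 0.446 and 0.571, and 0.415 and 1.08 FPKM, with PM-LMSCs below A-LMSCs. Eln, tropoelastin, was at 1.88 and 1.74 FPKM (A-LMSCs), at 2.11 and 4.20 FPKM (PM-LMSCs) and at 0.950 and 5.62 FPKM (M-LMSCs). In both later stages replicate 2 was the higher, by 1.99-fold and 5.92-fold, and the log2 fold change of 0.36 in M-LMSCs had an SE of 0.538 (adjusted p = 0.767).

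The fibulins and microfibril-associated proteins differed from each other. Fbln2 was even across the stages, at 692 and 666, 635 and 684, and 692 and 709.9 FPKM (0.05 in M-LMSCs against A-LMSCs, SE 0.116). Fbln5, whose product links tropoelastin to microfibrils and to lysyl oxidase-like 1, was at 58.1 and 51.0 FPKM (A-LMSCs), at 61.4 and 74.6 FPKM (PM-LMSCs) and at 77.7 and 82.6 FPKM (M-LMSCs). The stages followed each other without overlap, and the log2 fold change was 0.31 (SE 0.135, adjusted p = 0.787 from limma) in PM-LMSCs and 0.55 (SE 0.135, adjusted p = 0.155, and 0.0666 with the block) in M-LMSCs. Mfap5, which encodes the microfibril protein MAGP2, showed the same order at 35.4 and 31.9, 36.8 and 40.7, and 45.2 and 47.2 FPKM (0.45 in M-LMSCs, SE 0.113, adjusted p = 0.160, and 0.0725 with the block). Such a stepwise order with no overlap was seen in 4 of the 44 genes, Fbln5, Mfap5, Agrn and Sdc4 (9.09%, against 2.66% of all tested genes), and the reverse order in 0 (3.6% of all). Fbln1 was at 9.20 and 10.6, 5.23 and 8.02, and 5.56 and 12.3 FPKM. PM-LMSCs lay below A-LMSCs in Fbln1 (-0.54, SE 0.337, adjusted p = 0.859), and the M-LMSC libraries lay on both sides.

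Mfap4, an elastic-fibre protein that binds integrins, was at 2.00 and 1.78, 1.70 and 3.21, and 2.92 and 5.01 FPKM. The M-LMSC mean was 2.10 times that of A-LMSCs, with a log2 fold change of 0.75 (SE 0.270, adjusted p = 0.285 from limma, and 0.0815 with the block). It was 1.06 without M-LMSC replicate 1 and 0.44 without M-LMSC replicate 2. Mfap2, which encodes MAGP1, stayed below the level needed for testing, at 0.463 and 0.586, 0.613 and 0.684, and 1.53 and 1.16 FPKM, with both M-LMSC libraries highest on an estimated 11.5 to 31.5 fragments a library. In the fit with no filter on low values its log2 fold change in M-LMSCs was 0.62 (SE 0.117, adjusted p = 0.195). Emilin1 and Emilin2, which encode elastin microfibril interfacers, were the genes in which all 4 later libraries lay below both A-LMSC libraries. Emilin1 was at 22.9 and 23.2 FPKM (A-LMSCs) and at 16.7 to 21.6 FPKM in the later libraries, and Emilin2 at 59.5 and 56.7 FPKM and 47.6 to 52.9 FPKM. For both later stages against A-LMSCs the log2 fold change was -0.29 (SE 0.127, adjusted p = 0.463) in Emilin1 and -0.17 (SE 0.092, adjusted p = 0.524) in Emilin2. Efemp1 and Efemp2, fibulins 3 and 4, had log2 fold changes of -0.14 and -0.23 in M-LMSCs (adjusted p = 0.815 and 0.453).

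**Figure D3:**
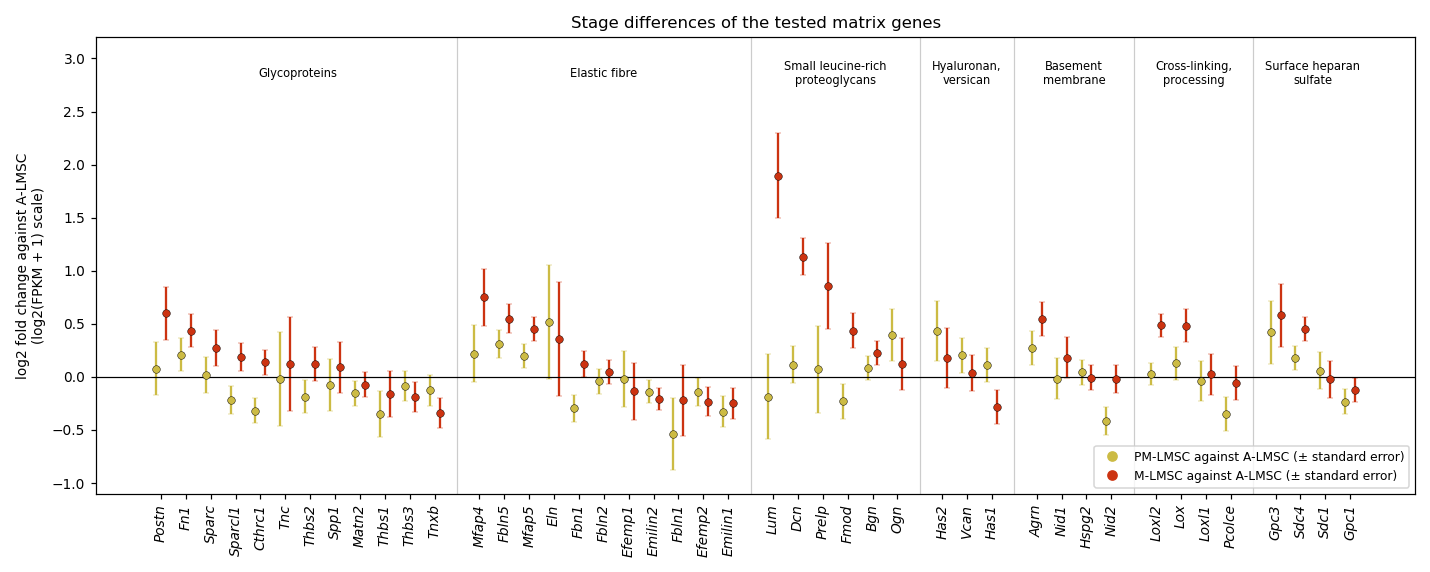
Log2 fold change on the log2(FPKM + 1) scale against A-LMSCs for PM-LMSCs (yellow) and M-LMSCs (red), with bars of 1 standard error from limma, for the 44 tested matrix genes grouped by role. Lum (1.90) and Dcn (1.13) in M-LMSCs stand highest, the PM-LMSC points mostly lie near 0, and the lowest point is Fbln1 in PM-LMSCs at -0.54.

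The 4 cross-linking and processing genes of the set had their highest sum in M-LMSCs. The 10 listed genes of this kind outside the set had their lowest sum there, at 521 and 551 FPKM. They summed to 641 and 679 FPKM in A-LMSCs and to 587 and 614 FPKM in PM-LMSCs. Lox encodes lysyl oxidase, which starts the cross-linking of collagen and elastin. It was at 419 and 395 FPKM (A-LMSCs), at 489 and 404 FPKM (PM-LMSCs) and at 633 and 511 FPKM (M-LMSCs), so that M-LMSCs lay above the overlapping values of the other stages. The log2 fold change was 0.48 (SE 0.158, adjusted p = 0.247 from limma, and 0.0614 with the block). Loxl2, a lysyl oxidase-like enzyme that acts on collagen IV, was at 72.6 and 69.2, 69.2 and 75.2, and 102 and 97.2 FPKM. Its replicates differed by at most 1.09-fold in each stage, and the log2 fold change was 0.49 in M-LMSCs (SE 0.106, adjusted p = 0.127, 0.0531 with the block and 0.0508 with the block and the correction) and 0.02 in PM-LMSCs. Loxl2 shares 2348 identical bases with Gm21451, which was at 0.0173 FPKM or less. Loxl1, the enzyme tied to elastic fibres, was at 219.9 and 212, 184 and 239, and 188 and 256 FPKM, with overlapping stages and a log2 fold change of 0.02 (SE 0.190) in M-LMSCs. Pcolce, the procollagen C-proteinase enhancer, had a mean of 65.2 ± 8.47, 51.1 ± 9.09 and 62.5 ± 4.70 FPKM (SD, n = 2 each). The sum of these 4 genes was 782 and 736 FPKM, 787 and 776 FPKM, and 982 and 929.9 FPKM.

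In the basement membrane group, Agrn stood apart from the laminin-binding nidogens and from perlecan. Agrn encodes agrin, a heparan sulfate proteoglycan that binds laminin and dystroglycan. It was at 3.10 and 3.49 FPKM (A-LMSCs), at 4.05 and 4.32 FPKM (PM-LMSCs) and at 4.44 and 6.17 FPKM (M-LMSCs). The stages did not overlap, and the M-LMSC mean was 1.61 times that of A-LMSCs. The log2 fold change in M-LMSCs was 0.54 (SE 0.159), with an adjusted p of 0.216 from limma and 0.0595 with the block. With the block and the GC and length correction it was 0.62 and passed (adjusted p = 0.0496), as the only matrix gene called in that fit (1.67% of all genes called higher and 1.31% lower). That fit called 0 matrix genes in PM-LMSCs against A-LMSCs (all genes 0.0487% higher, 0.00975% lower), in M-LMSCs against PM-LMSCs (0.0487% and 0.00975%) and in both later stages (0.448% and 0.214%).

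Nid1 and Nid2 encode nidogens, which join laminin to collagen IV. Nid1 was at 191 and 167, 199.5 and 156, and 236 and 174 FPKM, with replicate 1 the higher in each stage and overlapping stages. Nid2 was at 30.9 and 32.4 FPKM (A-LMSCs), at 22.1 and 24.9 FPKM (PM-LMSCs) and at 34.2 and 28.4 FPKM (M-LMSCs). PM-LMSCs were lowest, with log2 differences of -0.42 from A-LMSCs (SE 0.131, adjusted p = 0.566 from limma) and of 0.39 between M-LMSCs and PM-LMSCs (adjusted p = 0.451). Exons of Nid2 overlap Rtraf on the opposite strand over 437 bases. Hspg2, perlecan, ranged from 124 to 143 FPKM over the 6 libraries, with log2 fold changes of 0.04 and -0.01.

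Of the hyaluronan genes and versican, all 3 tested had log2 differences below 0 between M-LMSCs and PM-LMSCs, from -0.39 to -0.17, although without PM-LMSC replicate 1 or without M-LMSC replicate 2 only 2 of the 3 did. Has2, the main hyaluronan synthase of fibroblasts, was at 12.3 and 10.8 FPKM (A-LMSCs), at 19.7 and 12.8 FPKM (PM-LMSCs) and at 17.2 and 10.0 FPKM (M-LMSCs). The PM-LMSC libraries lay above both A-LMSC libraries but differed 1.55-fold from each other (0.43, SE 0.281, adjusted p = 0.859 from limma). Has1 was at 1.74 and 2.02, 2.36 and 1.87, and 1.10 and 1.67 FPKM, with both M-LMSC libraries lowest (-0.39 against PM-LMSCs, SE 0.161, adjusted p = 0.557). Vcan, versican, which binds hyaluronan, ranged from 3.13 to 4.83 FPKM. Acan (aggrecan) and Hapln1 (link protein), defining products of cartilage, were at 0.0771 and 0.0226 FPKM or less.

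At the cell surface, Sdc4 encodes syndecan 4, a heparan sulfate co-receptor of fibronectin. It was at 88.5 and 92.5 FPKM (A-LMSCs), at 97.5 and 108 FPKM (PM-LMSCs) and at 129 and 119 FPKM (M-LMSCs). The stages followed each other without overlap, and replicates differed by at most 1.11-fold (0.45 in M-LMSCs, SE 0.112, adjusted p = 0.157 from limma, and 0.0706 with the block). Gpc3, glypican 3, was at 8.47 and 9.64, 10.8 and 14.3, and 9.91 and 19.7 FPKM. All 4 later libraries lay above A-LMSCs, but the M-LMSC libraries differed 1.99-fold from each other, and the log2 fold change of 0.58 had an SE of 0.296 (adjusted p = 0.412). Sdc1 and Gpc1 had log2 fold changes of -0.02 and -0.12 in M-LMSCs. In Gpc1, 977 exon bases overlap Ankmy1 on the opposite strand.

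**Figure D4:**
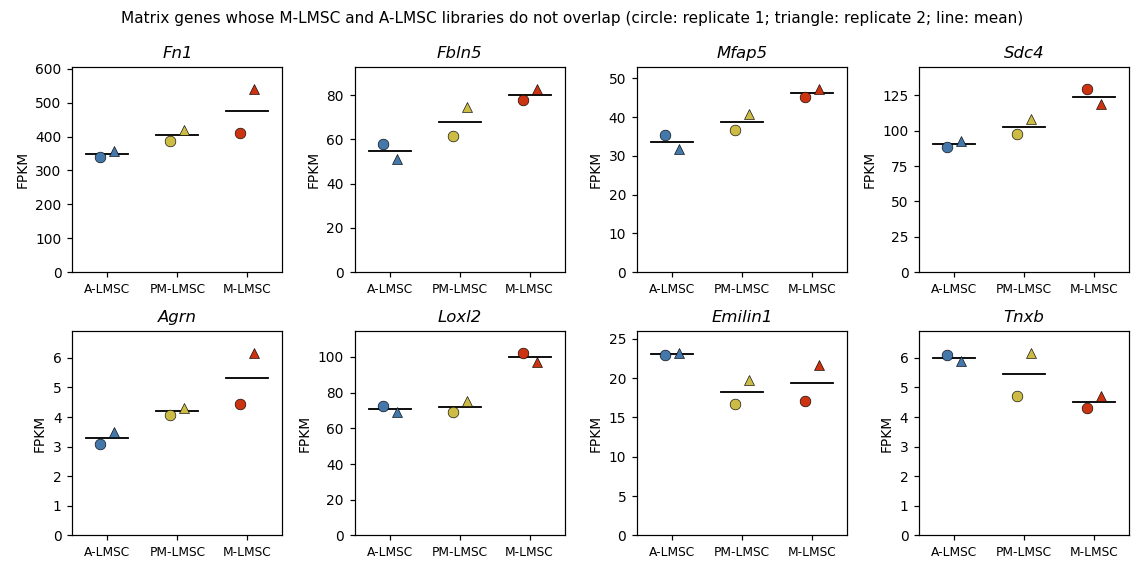
FPKM (axes start at 0, a scale for each gene) of 8 matrix genes whose M-LMSC and A-LMSC libraries do not overlap. Circles are replicate 1, triangles replicate 2, and bars the stage means. Fbln5, Mfap5, Sdc4 and Agrn step upward from A-LMSCs to PM-LMSCs to M-LMSCs, Loxl2 is set apart in M-LMSCs alone, and Emilin1 and Tnxb lie below A-LMSCs in M-LMSCs.

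Replicates of at least 1 stage differed 1.5-fold or more in 14 of the 44 genes (31.8%, against 20.1% of all tested genes). The gaps were widest in Lum in A-LMSCs (7.04-fold) and in Eln (5.92-fold), Tnc (2.92-fold), Prelp (2.52-fold) and Fbln1 (2.21-fold) in M-LMSCs. Replicate 1 was the higher in all 3 stages in 9 genes (20.5%, against 26.0%), namely Tnc, Matn2, Efemp1, Ogn, Vcan, Has2, Nid1, Lox and Gpc1. Replicate 2 was the higher in all 3 stages in 9 others (20.5%, against 21.2%), namely Fn1, Sparc, Sparcl1, Thbs3, Emilin1, Fbln1, Agrn, Gpc3 and Sdc1. Tested as a term of the fit, which was added after the data had been seen, the difference between replicate 2 and replicate 1 was called in 0 of the 44 genes (0.0292% of all tested genes higher and 0.0195% lower), and at an unadjusted p under 0.05 in 5 higher and 7 lower (11.4% and 15.9%, against 8.17% and 14.4%). The largest were Eln at 0.81 (SE 0.298, adjusted p = 0.185 from limma) and Tnc at -0.69 (SE 0.240, adjusted p = 0.172). In Efemp1 the term was -0.49 (SE 0.102, adjusted p = 0.118) and in Fbln1 0.58 (SE 0.153, adjusted p = 0.128).

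**Figure D5:**
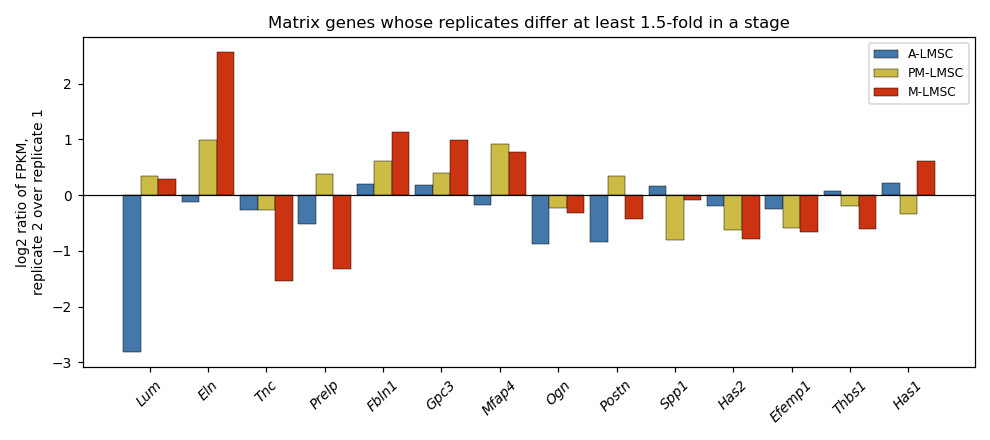
Log2 ratio of FPKM of replicate 2 over replicate 1 in each stage for the 14 tested matrix genes whose replicates differ at least 1.5-fold in a stage. Bars start at 0. Lum is far lower in replicate 2 of A-LMSCs, Eln, Fbln1 and Gpc3 are higher in replicate 2 of M-LMSCs, and Tnc, Prelp and Has2 are lower there.

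The stage means of 8 matrix genes were at least 1.5-fold apart between M-LMSCs and A-LMSCs (18.2%, against 8.81% of all tested genes), namely Eln, Postn, Gpc3, Prelp, Mfap4, Dcn, Agrn and Lum. In 6 of these 8, all but Eln and Prelp, the M-LMSC and A-LMSC libraries did not overlap. Over all tested genes, 27.1% lay wholly above and 24.4% wholly below. The 8 were picked by their mean difference, which favors non-overlap, so the 6 are not a separate result. Between PM-LMSCs and A-LMSCs the 1.5-fold mark was passed by Eln and Lum (4.55%, against 5.3%), in both of which the replicates of a stage differed by more than that.

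Markers of some other cell types were also higher in M-LMSCs or in both later stages. Smooth muscle and pericyte genes had their lowest sums in M-LMSCs. In 11 of 12 haematopoietic genes, both M-LMSC libraries lay above all others, as they did in 11.8% of all tested genes. Only 7 of the 12 reached the level needed for testing. The 12 summed to 138 and 129 FPKM (A-LMSCs), 174 and 80.1 FPKM (PM-LMSCs) and 413 and 301 FPKM (M-LMSCs), most of it from Lyz2. The defining gene Ptprc was at 0.0987 FPKM or less in every library. Of 12 mesothelial genes, 10 were tested, and 9 of the 12 were higher in all 4 later libraries than in A-LMSCs (10.7% of all tested genes were). The 12 summed to 129 and 189.9 FPKM, 317 and 444 FPKM, and 217 and 530.2 FPKM. Krt19, a keratin of the same list, went the other way and was called lower in M-LMSCs against A-LMSCs (-1.53, SE 0.145, adjusted p = 0.0395 from limma). The 12 epithelial genes summed to between 1.22 and 8.06 FPKM, with Epcam listed at 0 in A-LMSCs and PM-LMSCs. Of these 12, 9 stayed under 1 FPKM in every library and only 1 was tested. In 7 of the 12 both M-LMSC libraries were highest, against 11.8% of all tested genes. The 10 endothelial genes summed to between 4.03 and 5.89 FPKM. Smooth muscle and pericyte genes summed to 10020 and 9941 FPKM, 9732 and 10310 FPKM, and 8865 and 8816 FPKM. Cartilage and bone genes summed to between 12.3 and 19.4 FPKM, with Ibsp at 0. Their part in the values of Dcn, Lum and the other matrix genes was not tested.

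Genes of the same pathways outside the set gave 0 calls in all 4 contrasts (limma, adjusted p under 0.05), among 90 tested of 137 listed, and 13 higher and 8 lower for M-LMSCs over A-LMSCs at an unadjusted p under 0.05 (14.4% and 8.89%, against 7.68% and 6.96% of all tested genes). With the replicate block, 10 of them were called in M-LMSCs relative to A-LMSCs, 6 higher and 4 lower (6.67% and 4.44%, against 2.28% and 1.64%). Tgfbi among them reached the mean of 1 FPKM needed for testing only through the M-LMSC libraries, in which it was high. The higher ones were Tgfbi (a TGF-beta-induced integrin ligand, 1.18, adjusted p = 0.0171), Srpx (a sushi-repeat protein, 1.08, adjusted p = 0.0306), Tnfaip6 (the hyaluronan-binding TSG-6, 0.73, adjusted p = 0.0429), Podn (the SLRP podocan, 0.66, adjusted p = 0.0485), Plod2 (a lysyl hydroxylase of collagen, 0.62, adjusted p = 0.0343) and Sulf1 (a heparan 6-O-endosulfatase, 0.61, adjusted p = 0.0497). The lower ones were Cspg4 (the proteoglycan NG2, -0.82, adjusted p = 0.0250), Tgm2 (transglutaminase 2, which cross-links fibronectin, -0.75, adjusted p = 0.0204), Ltbp1 (a latent TGF-beta binding protein, -0.71, adjusted p = 0.0223) and Hs3st1 (a heparan sulfate 3-O-sulfotransferase, -0.61, adjusted p = 0.0382). All p-values in these sentences are from limma with the block. Tgfbi was at 0.681 and 0.704 FPKM (A-LMSCs), at 0.834 and 0.329 FPKM (PM-LMSCs) and at 2.80 and 2.86 FPKM (M-LMSCs). Tgm2 was at 374 and 419.7, 316 and 332, and 234 and 237 FPKM, and Ltbp1 at 19.2 and 21.3, 14.4 and 14.98, and 12.1 and 11.7 FPKM, so that in both the stages stepped downward without overlap. With the GC and length correction beside the block, Tgfbi, Podn, Cspg4, Tgm2, Ltbp1 and Hs3st1 stayed below 0.05. These were 2 higher and 4 lower of the 90, beside 1.67% and 1.31% of all tested genes in that fit.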

How the data were processed

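RNA-seq was performed on cultured LMSCs at 3 tumor stages, with 2 libraries per stage. The authors deposited FPKM values, in which fragment counts are already divided by exon length and library size, for 34745 genes, 1 column per library. The submitters' processing notes name TopHat2 2.0.9 and mm10. The counting tool, the annotation and the use of strand are not given in the sources used here. Columns were matched to samples through the labels, and 0 columns were left unmatched.

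The 10279 genes whose mean over the libraries reached 1 FPKM were fitted as log2(FPKM + 1) with limma 3.58.1 in R 4.3.3 (eBayes with trend, 1 mean per stage), and adjusted p-values (Benjamini-Hochberg) were read at 0.05. No count model was applied to FPKM. The fit was tested on simulated data. The depth estimate rests on the spacing of low values, and with 2 libraries per stage it limits the precision of genes near 1 FPKM.

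The labels give replicate numbers 1 and 2 at each stage. Deviations from the stage mean correlated between libraries of the same number at 0.238 (A-LMSC and PM-LMSC), 0.307 (A-LMSC and M-LMSC) and 0.491 (PM-LMSC and M-LMSC), so the numbers were taken to pair the libraries. The labels do not state such a pairing. It was read from the same values to which the block was then fitted, so these correlations do not establish it. The fit with this replicate block is given where it changed a call and for some genes higher in M-LMSCs that it left near the threshold. For M-LMSCs against A-LMSCs its adjusted p from limma was 0.151 in Postn, 0.147 in Fmod and 0.155 in Tnxb, which was lower.

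The members and the lists of other genes were chosen with earlier results of these data known. Values in every library are given for members past the threshold with or without the block, the 6 with the largest change in each contrast, the 8 most abundant, and those under 1 FPKM whose stages do not overlap. Further members were named as examples of their role or after their values were seen. Alternatives were a pseudocount of 0.1, no filter on low values, quantile normalization, median centring, only the stages compared, the block, the block with a lowess correction (span 0.3) for GC content and length, a log2 fold change of at least 1 and each library left out. Where a stage then had 1 library, it was assumed to vary like the others. Coordinates, exon overlaps and GC content came from GENCODE M21 (GRCm38), in which 34267 identifiers were found. Shared stretches were searched with blastn 2.17.0 (at least 95% identity over 200 bases), and promoters came from RefSeq. A gene name was repeated in 57 cases, and the first identifier was used.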

Additional observations from a re-analysis of the deposited data

Results flagged for a closer look

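Fbn1, fibrillin 1, lay in opposite directions from A-LMSCs in the later stages. Both PM-LMSC libraries were below both A-LMSC libraries (-0.30 on the log2 scale) and both M-LMSC libraries above them (0.12), which is why the gene stands here. The difference between M-LMSCs and PM-LMSCs was 0.42 and did not pass (adjusted p = 0.415 from limma), so the opposite directions were not shown to differ by a test. The margin between the lowest M-LMSC library and the highest A-LMSC library was small, at 119.2 against 118.8 FPKM. Groups of 2 libraries are too small to test whether a single library lies apart.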

How the results depend on the processing

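Over 15 results of named matrix genes and 192 alternative values, 0 reversed direction and 7 passed. None of the 15 had passed to begin with, so no call could be lost. The 15 cover only Dcn, Fmod, Fn1, Lox, Lum, Mfap4, Nid2 and Postn. Other named genes, such as Eln, Prelp, Gpc3 and Ogn, were not counted, and Ogn did change direction under alternatives given with that gene. The 7 concern Dcn and Lum and are given with those genes. The range over the alternatives was 0.94 to 1.33 (adjusted p 0.0239 to 0.507, limma) for Dcn and 1.21 to 2.72 (0.0297 to 0.395) for Lum in M-LMSCs against A-LMSCs.

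Counts over all genes depended on the fit, where 4 had been called for PM-LMSCs and 7 for M-LMSCs (each against A-LMSCs), 13 for both later stages together and 3 for M-LMSCs over PM-LMSCs. With no filter on low values PM-LMSCs had 1, M-LMSCs 3 and both later stages 0. With only the stages compared they were 21 for PM-LMSCs and 1 for M-LMSCs, with 1 matrix gene, Lum, called between M-LMSCs and PM-LMSCs. Median centring gave 7 for both later stages. The replicate block gave 30 (PM-LMSCs), 403 (M-LMSCs), 43 (M-LMSCs over PM-LMSCs) and 211 (both later stages), with 2 matrix genes called in M-LMSCs against A-LMSCs. Among other matrix genes it called 10 there. Between M-LMSCs and PM-LMSCs it called 2, Tgfbi higher and Cspg4 lower (1.11% each, against 0.272% and 0.146% of all tested genes). Tgfbi reached the level needed for testing only through the M-LMSC libraries, so its share is not a separate result. In both later stages the block called 3, Sulf2 higher and Ltbp1 and Tgm2 lower (1.11% and 2.22%, against 1.33% and 0.72%). It changed no other call of a matrix gene. The block with the GC and length correction gave 305 (M-LMSCs), 6 (M-LMSCs over PM-LMSCs) and 68 (both later stages), with 1 matrix gene (Agrn) and 6 other matrix genes in M-LMSCs. The cause was not tested.

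With 1 library left out, counts ran from 1 to 28 (PM-LMSCs), 1 to 90 (M-LMSCs), 2 to 25 (M-LMSCs over PM-LMSCs) and 0 to 93 (both later stages). The highest came without either M-LMSC library, at 28 (without replicate 1) and 26 (without replicate 2) for PM-LMSCs, and at 85 and 90 for M-LMSCs, with 93 and 55 for both later stages and 18 and 25 over PM-LMSCs. Without a PM-LMSC library the first 2 counts were 1 each and that of both later stages 0, and without an A-LMSC library they were 2, at most 3 and 2. Matrix genes called ranged from 0 to 1 in M-LMSCs, against A-LMSCs (Lum without A-LMSC replicate 1, Dcn without M-LMSC replicate 1) and against PM-LMSCs (Lum without either A-LMSC library). For other matrix genes the ranges were 0 to 2, 0 to 2 and 0 to 1 for both later stages, with Col18a1 and Cspg4 called without M-LMSC replicate 2 and Srpx without M-LMSC replicate 1. Among tested members, a library of Lum, Mfap4 and Sparcl1 rested on as few as 16.3, 50.5 and 50.5 estimated fragments, and 6 members were too low to be tested.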

Other observations

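Of 36 listed genes for enzymes that build or trim glycosaminoglycans, 33 were tested. Their median log2 fold change in M-LMSCs against A-LMSCs was 0.08 (22 above 0 and 11 below). Over all tested genes it was 0.03 (5618 above 0 and 4661 below). Limma called 0 of the 33, beside 0.0389% of all tested genes higher and 0.0292% lower. At an unadjusted p under 0.05, 4 were higher and 1 lower, beside 7.68% and 6.96% of all tested genes. Sulf2, an extracellular sulfatase that removes 6-O-sulfate from heparan sulfate, was at 7.30 and 7.08 FPKM (A-LMSCs), at 10.5 and 11.1 FPKM (PM-LMSCs) and at 10.5 and 9.78 FPKM (M-LMSCs). All 4 later libraries lay above both A-LMSC libraries, by 0.49 on the log2 scale for both later stages (SE 0.094, adjusted p = 0.182 from limma, 0.0499 with the replicate block and 0.0532 with the block and the GC and length correction). Sulf1, its paralog, was at 17.8 and 13.8, 17.99 and 19.0, and 26.4 and 22.6 FPKM.

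Of 16 genes of hyaluronan receptors and breakdown, 11 were tested and their median log2 fold change in M-LMSCs was 0.04, against 0.03 over all tested genes. Tnfaip6, whose product transfers heavy chains to hyaluronan, was at 0.898 and 0.869 FPKM (A-LMSCs), at 1.98 and 1.40 FPKM (PM-LMSCs) and at 1.91 and 2.36 FPKM (M-LMSCs). Cspg4, a proteoglycan of pericytes and stromal cells, was at 13.4 and 14.1, 14.7 and 14.9, and 6.23 and 8.59 FPKM, with both M-LMSC libraries below the other 4. Its log2 difference between M-LMSCs and PM-LMSCs was -0.92 (SE 0.153, adjusted p = 0.192 from limma, 0.0473 with the replicate block and 0.0952 with the block and the GC and length correction). Podn was higher in replicate 2 than in replicate 1 of every stage, at 1.91 and 2.72, 1.58 and 3.15, and 2.94 and 5.86 FPKM.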
